A study of Mus musculus with 10 samples.

Results

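The common gamma chain cytokine receptors are described here at their accessible chromatin sites in mouse Th17 cells, which are helper T cells producing interleukin-17. The members are 6 genes, Il2rg, Il2ra, Il2rb, Il7r, Il4ra and Il21r. A site of the deposited table was taken as theirs where the nearest protein-coding gene body, within 50 kb, was one of these genes. This gave 39 of 39657 sites: 1 at Il2rg, 9 at Il2ra, 7 at Il2rb, 6 at Il7r, 13 at Il4ra and 3 at Il21r. All 39 are 201 bp wide, 21 lie in a gene body and 6 within 1 kb of a gene end. Being nearest to a gene does not show that a site acts on it.

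Chromatin was profiled by ATAC-seq, in which a transposase cuts open chromatin, in 10 libraries from naive CD4+ T cells of spleen and lymph nodes. The cells were cultured for 3 days with plate-bound anti-CD3, anti-CD28, IL-6, anti-IFNγ and TGFβ. WT means PDHfl/fl cells without Cre (PHD-fl/fl in the sample titles) and KO means PDHfl/fl cells with CD4 Cre (PHD-fl/fl_CD4cre in the titles), whose promoter is active in T cells from their development in the thymus on. Cells were untreated (WT n = 3, KO n = 3) or differentiated with 10 mM sodium acetate (WT n = 2, KO n = 2). PDH is pyruvate dehydrogenase, which makes acetyl-CoA from pyruvate in mitochondria. Acetyl-CoA can also be made from acetate. The labels give no age, and do not say that replicates came from separate animals, so p-values measure only the spread between these libraries. All 10 libraries carry the floxed alleles, and no site described here checks the deletion.

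The common gamma chain, encoded by Il2rg, is the shared subunit of the receptors for IL-2, IL-4, IL-7, IL-9, IL-15 and IL-21. Each cytokine is recognised by its own chain: Il2ra and Il2rb for IL-2, Il2rb also for IL-15, Il7r for IL-7, Il4ra for IL-4 and Il21r for IL-21. The gamma chain carries JAK3, the other chains mostly JAK1, and the kinases activate STAT5 below the IL-2 and IL-7 receptors, STAT6 below Il4ra and STAT3 below Il21r. IL-2 acting through STAT5 is known to restrain Th17 differentiation, and IL-21 acting through STAT3 to favour it. Il7r marks resting and memory T cells and is turned down after activation, while Il2ra is turned on.

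Of the 6 genes, 4 have a site that reaches into their promoter, and letters from the overlap are shown because those sites are described below. Sequences are RefSeq promoter records on GRCm38.p6, which held 5 of the 6 members (not Il2rb). They are printed 5′ to 3′ on the strand of the gene, in lower case, with capitals where a searched motif matches on either strand.
Il2rg, chrX:101268256-101268378, minus strand: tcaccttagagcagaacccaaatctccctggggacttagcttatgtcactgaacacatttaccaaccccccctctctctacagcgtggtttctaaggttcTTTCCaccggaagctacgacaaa
Il2ra, chr2:11642570-11642770, plus strand: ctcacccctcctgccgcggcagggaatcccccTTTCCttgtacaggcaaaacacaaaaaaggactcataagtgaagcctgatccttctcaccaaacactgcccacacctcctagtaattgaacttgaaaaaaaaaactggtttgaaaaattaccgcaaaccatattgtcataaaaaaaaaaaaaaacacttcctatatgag
Il7r, chr15:9529896-9529925, minus strand: aCTTCCTGTttctggcacttgccttcttct
Il4ra, chr7:125552122-125552270, plus strand: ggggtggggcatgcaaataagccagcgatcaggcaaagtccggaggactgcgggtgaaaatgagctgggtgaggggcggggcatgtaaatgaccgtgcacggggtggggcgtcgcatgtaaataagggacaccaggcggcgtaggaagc
The capitals mark the core of an NFAT site (GGAAA) at Il2rg and Il2ra and an ETS site (ACAGGAAG) at Il7r. Over the 250 bases before the annotated start, GGAAA occurred in 4 of the 5 members with a record, against 55.6% of 32817 promoters. ACAGGAAG occurred at Il7r only, against 2.90%, and TGTGGT (RUNX) at Il2rg and Il21r, against 14.0%. The STAT motif TTCNNNGAA occurred at Il7r only, against 7.01%, and TGANTCA (AP-1) in none of the 5, against 6.75%. A match is a run of letters and no measurement of binding, and NFAT and ETS cores can overlap.

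The deposited values are signal, that is, the reads of a site over a factor that is the same for all sites of a library. Reads in sites ranged from 3500172 (WT acetate 1) to 13356560 per library, and a member's site held 9 to 1880 reads. The table numbers its sites as differential, so selection on these samples is assumed, and counts for untreated KO against WT are not independent evidence. The column names carry a prefix whose meaning is not given. It is ATAC1 for the 3 untreated KO libraries and for WT untreated 1 and 2, and ATAC2 for WT untreated 4 and the 4 acetate libraries, so acetate and prefix cannot be told apart in KO. All 7 Th17 markers of the fixed list had sites, with 1158 to 1567 RPM over all libraries (RPM is reads at a gene's sites scaled to the library's reads in all sites). Markers of other cells had sites too. Of the CD8 T cell list Eomes held 48.5 to 71.3 RPM, and Cd8a and Cd8b1 had no site. The myeloid markers Itgam, Cd14 and Spi1 together held 154 to 181 RPM, and Lyz2 and Csf1r had no site. Itgam was at 89.0 to 102 in untreated KO and 52.1 to 85.6 elsewhere. Spi1 went the other way, with 64.5 to 67.0 in untreated KO and 84.8 to 94.9 elsewhere. Cd14 overlapped, at 6.69 to 7.20 in untreated KO and 6.23 to 9.41 elsewhere. The NK and innate lymphoid markers Klrb1c, Zbtb16 and Klrk1 together held 207 to 275 RPM, and Ncr1 had no site. Zbtb16 was at 44.9 to 51.4 in untreated KO and 12.2 to 24.6 elsewhere. Klrb1c, with most of these reads, was at 171 to 194 in untreated KO, 173 to 226 in untreated WT and 221 to 242 with acetate. Klrk1 overlapped, at 11.1 to 12.7 in untreated KO and 6.57 to 17.6 elsewhere. The B cell markers Pax5 and Blnk together held 66.2 to 80.7 RPM in untreated KO and 17.0 to 25.4 elsewhere, and Cd79a and Ms4a1 had no site. The 4 gamma-delta T cell markers together held 120 to 128 RPM in untreated KO and 66.6 to 94.8 elsewhere, but went different ways. Blk (26.2 to 35.7 against 4.54 to 14.1 elsewhere) and Sox4 (29.1 to 30.3 against 7.90 to 18.1) were higher in untreated KO. Sox13 was lower there (12.5 to 16.3 against 17.4 to 20.4). Cd163l1 was at 43.9 to 52.0 in untreated KO, 52.4 to 58.0 in untreated WT and 34.8 to 41.0 with acetate. Trac had no site, and the 4 other T cell markers together held 878 to 1129 RPM in KO and 421 to 487 in WT. Of these Cd4 alone was at 548 to 732 in KO and 85.7 to 101 in WT. Cd3e (187 to 213 in KO, 180 to 215 in WT) and Cd3g (68.4 to 72.7 and 54.3 to 74.5) overlapped between genotypes. Lck was lower in untreated KO, at 75.4 to 79.8 against 97.2 to 117 elsewhere. The part of these markers in the differences below was not tested.

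Of all reads in sites, the 6 genes together took 1439 ± 11.1 RPM (SD, n = 3) in untreated KO, 1448 ± 124 (n = 3) in untreated WT, 1374 ± 75.7 (n = 2) in acetate-treated WT and 1320 ± 73.3 (n = 2) in acetate-treated KO. A share of reads cannot be moved by a factor per library, and all 4 means lie within the range of the untreated WT libraries, 1317 to 1565. Per site, each 201 bp wide, as deposited signal in untreated WT, the order was Il4ra (491 ± 58.7), Il2ra (390 ± 30.4), Il2rg (389 ± 58.5), Il2rb (332 ± 38.7), Il7r (276 ± 45.1) and Il21r (210 ± 41.7). Il2ra, Il2rg and Il2rb overlapped between libraries, as did Il4ra with Il2rg, Il2rb with Il7r and Il7r with Il21r. The order of the means was the same in untreated KO, from Il4ra (307 ± 35.2) to Il21r (94.4 ± 5.06), and in WT with acetate. In KO with acetate Il2rg (338 ± 62.1) and Il2ra (332 ± 58.4) changed places by less than their spread.

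By share of reads, 24 comparisons of a gene between a pair of groups gave no adjusted p below 0.667 (two-sided exact permutation tests, smallest possible p 0.1, or 0.333 between the acetate groups). As a ratio, the share of Il21r differed most between genotypes in untreated cells. In RPM the differences of Il2ra (23.4) and Il2rb (-21.5) were larger than that of Il21r (-15.9), but the groups overlapped there. It held 46.9, 47.9 and 41.0 RPM in untreated KO and 68.1, 66.2 and 49.1 in untreated WT, a ratio of 0.740 (exact permutation p = 0.1). The groups did not overlap, but the lowest WT library, the ATAC2 library WT 4, came close to the KO range. With acetate Il21r held 39.1 and 41.3 in WT and 39.6 and 36.9 in KO. The share of Il4ra was 615, 669 and 619 in untreated KO and 581 and 548 in KO with acetate (exact permutation p = 0.1), without overlap.

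**Figure D1:**
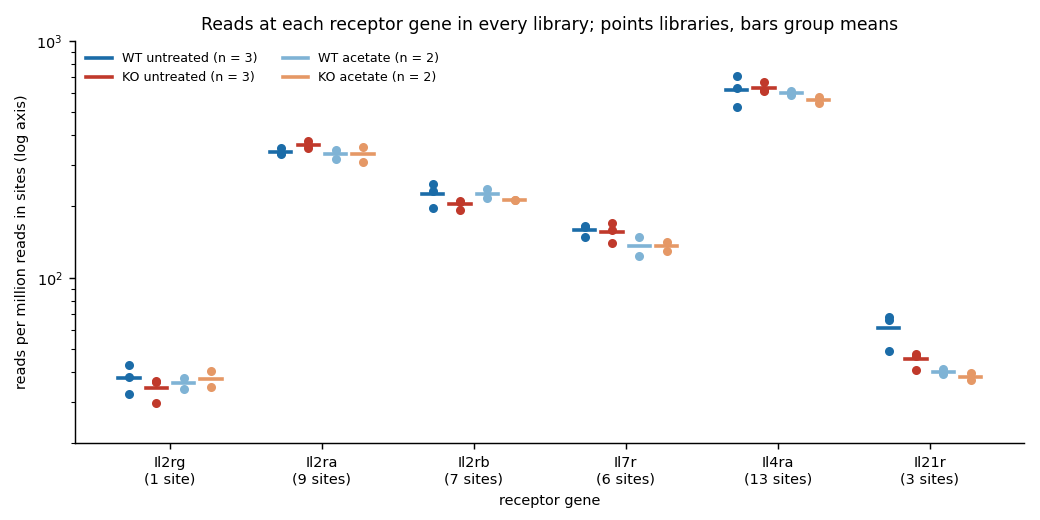
Reads at the sites of each receptor gene in RPM (log axis) for every library (points) with group means (bars). Il4ra, with 13 sites, holds 526 or more and Il2rg, with 1 site, 42.8 or fewer, and Il21r is the gene where the untreated WT points stand above the other groups.

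The first comparison asks how loss of the enzyme changed these sites in untreated cells. On the deposited scale all 39 fell in KO (limma, adjusted p under 0.05), where 89.6% of all sites did. The median log2 difference was -0.87, against -0.84 over all sites. The members' median lay close to that of the table, and the fall depended on the scale. With cyclic loess, which removes smooth trends of the difference between libraries with signal level, none of the 39 was called in either direction (4 at an unadjusted p under 0.05), against 11.8% of all sites. With median-of-ratios factors 2 sites were called higher (9.63% of all sites) and with total signal 2 lower (5.74%). The median of all sites moved to -0.04, -0.13 and 0.00 with median-of-ratios, total signal and loess. Within the ATAC1 libraries 38 of the 39 were lower as deposited, but the share of all sites was not counted for that fit.

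At Il2rg, the shared chain, the single site (chrX:101268178-101268378) is centred 23 bases before the annotated start, on the stretch printed above. Its signal was 205, 182 and 260.1 in untreated KO and 366, 346 and 456 in untreated WT. The KO values all lay below the WT values, a log2 difference of -0.85 ± 0.21 (SE, adjusted p = 1.85e-04). It was -0.05 with loess, close to 0.

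At Il2ra, the high-affinity chain of the IL-2 receptor, the differences spread from -0.41 to -1.14 with a median of -0.73. The largest was at the site 19.4 kb before the start (chr2:11623270-11623470, named -19.4 kb), whose signal was 135, 132 and 167 in KO and 367, 306 and 287 in WT. Every KO library lay below every WT library, and the log2 difference was -1.14 ± 0.21 (adjusted p = 2.38e-06). The promoter site printed above (-0.12 kb) had the highest mean signal of the gene, with 569.8, 577 and 766 in KO and 848, 738 and 1005 in WT. There the groups overlapped and the difference was smaller, -0.44 ± 0.18 (adjusted p = 0.0181). The smallest was inside the gene at +12.4 kb (chr2:11655092-11655292), -0.41 ± 0.20 (adjusted p = 0.0435). That site was 1 of the 2 called higher with median-of-ratios factors (0.40, adjusted p = 0.0465).

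At Il2rb, the signalling chain shared by the IL-2 and IL-15 receptors, the median was -0.94. Its highest site lies inside the gene, 14.5 kb from the lower-coordinate end (chr15:78493632-78493832). Signal there was 744, 873 and 836 in KO and 1482, 1292 and 1286 in WT, with a difference of -0.73 ± 0.17 (adjusted p = 8.12e-05) and no overlap. The site past the other end of the gene, at +35.5 kb (chr15:78514684-78514884), changed most of all 39: 80.6, 62.6 and 91.0 in KO against 242, 152 and 186 in WT, -1.29 ± 0.23 (adjusted p = 8.79e-07). It was also called lower with total signal (-0.58). A pair of sites at the lower-coordinate end held 94.1 ± 13.7 and 67.0 ± 3.5 (SD, n = 3) in KO against 213 ± 70.9 and 149.8 ± 19.8 in WT.

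At Il7r, the IL-7 receptor alpha chain, the median was -0.84. The start site (+0.05 kb, chr15:9529725-9529925, with the ETS letters above) had signal of 340.0, 306 and 339 in KO and 633, 436 and 787 in WT, a difference of -0.87 ± 0.20 (adjusted p = 1.04e-04). The WT libraries were widely spread, but the lowest still stood above the highest KO library. The highest site, -5.5 kb (chr15:9535284-9535484), differed less: 372, 332 and 468 in KO and 679, 506 and 516 in WT, -0.54 ± 0.20 (adjusted p = 0.00783). The largest difference was at +6.2 kb inside the gene (chr15:9523620-9523820), with 37.3, 41.1 and 52.0 in KO and 107, 83.4 and 70.8 in WT. It came to -0.98 ± 0.25 (adjusted p = 3.13e-04).

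At Il4ra, the IL-4 receptor alpha chain, which also serves IL-13, the median was -0.92. The start site printed above (-0.05 kb) held 326, 269 and 385 in KO and 673, 497 and 752 in WT, -0.96 ± 0.20 (adjusted p = 1.63e-05), without overlap. The largest difference was inside the gene at +9.2 kb (chr7:125561355-125561555): 175, 275 and 249 in KO and 611, 545 and 463 in WT. This is -1.22 ± 0.20 (adjusted p = 3.07e-07), and the site was the other one called lower with total signal (-0.51). The strongest of all 39 sites lies at +36.6 kb (chr7:125588805-125589005), 9.33 kb past the end of Il4ra and 14.2 kb before the body of its neighbour Il21r. Its signal was 902, 1231 and 1183 in KO and 1581, 1462 and 1325 in WT. Its difference of -0.41 ± 0.17 (adjusted p = 0.0156) was the smallest of the gene, and with median-of-ratios factors it was called higher (0.40, adjusted p = 0.0390).

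At Il21r, the IL-21 receptor chain, the 3 sites had the lowest median, -1.17. The site at -2.7 kb (chr7:125600666-125600866) held 67.5, 71.0 and 73.3 in KO and 191, 151 and 142 in WT, -1.17 ± 0.23 (adjusted p = 8.01e-06). The strongest, at +27.1 kb inside the gene (chr7:125630422-125630622), held 157, 191 and 181 in KO and 487, 401 and 318 in WT, also -1.17 ± 0.21 (adjusted p = 1.92e-06). Both were without overlap, and at each the fold was 0.445. With loess neither was called.

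**Figure D2:**
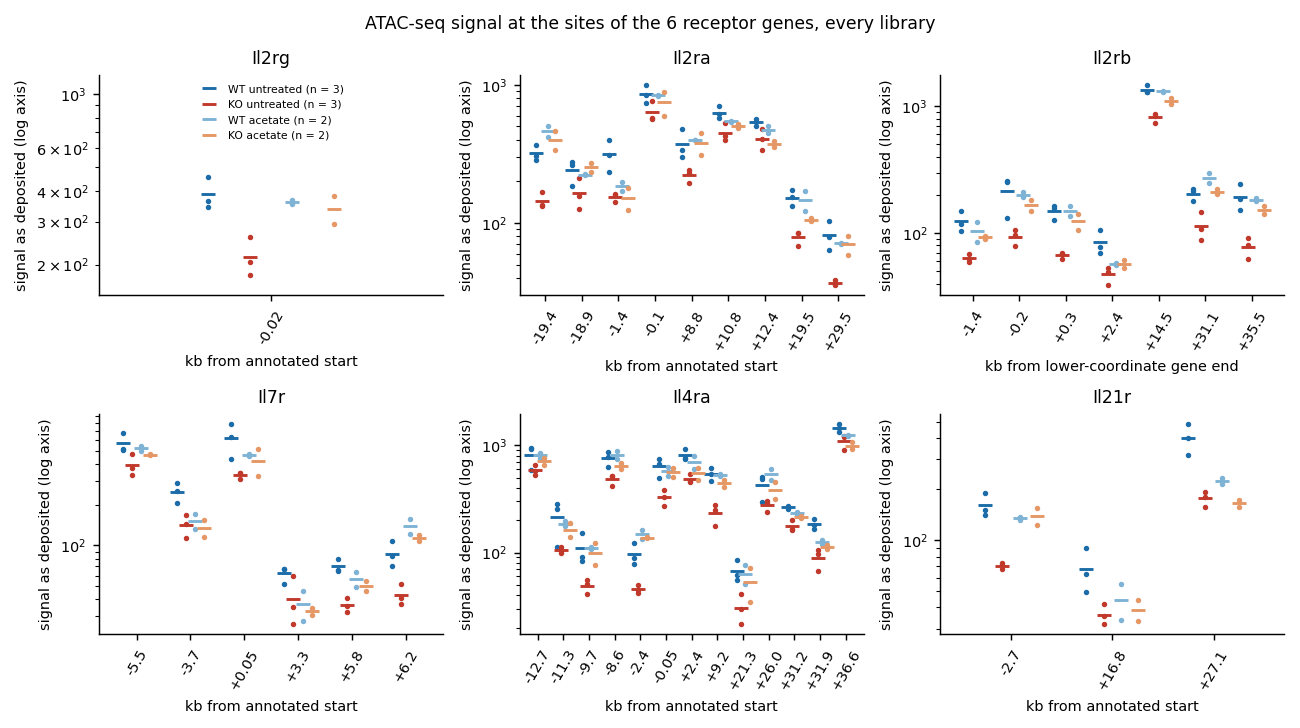
Deposited signal (log axis) at all 39 sites, by position along each gene in kb, for every library (points) with group means (bars); positions are from the annotated start, or from the lower-coordinate end for Il2rb. The untreated KO points (red) are lowest at most sites, and at Il2ra -19.4 kb, Il7r +6.2 kb and Il4ra -2.4 kb the means of both acetate groups stand above that of untreated WT, with overlapping points at Il2ra and Il7r.

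Strong member sites differed less between genotypes than weak ones as deposited. Over the 39 sites the log2 difference and the mean log2 signal had a Pearson r of 0.556, against -0.149 over all 39657 sites. With loess the values were 0.244 and -0.236. These are correlations across sites that share libraries and factors, given as a description.

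The second comparison asks whether the genotypes differed when both had acetate. None of the 39 sites was called as deposited, where 0.0227% of all sites (9) were, and none of the 39 had an unadjusted p under 0.05. With loess, where the background was also 0.0227%, none was called either. As deposited 37 of the 39 were below 0, with a median of -0.18 against -0.15 over all sites. The difference of the largest size was -0.50 ± 0.26 at Il4ra +26.0 kb (chr7:125578208-125578408), where KO had 453 and 315 and WT 600.0 and 476. At Il2rg, KO had 382 and 294 and WT 366 and 353, a difference of -0.10 ± 0.26 whose sign turned on the other scales (0.06, 0.07 and 0.07). At the Il21r -2.7 kb site KO had 155 and 124 and WT 132 and 138, and the ranges overlapped. With 2 libraries a group the absence of calls does not show that the genotypes were alike. The test of whether the genotype difference itself changed is given with the interaction.

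**Figure D3:**
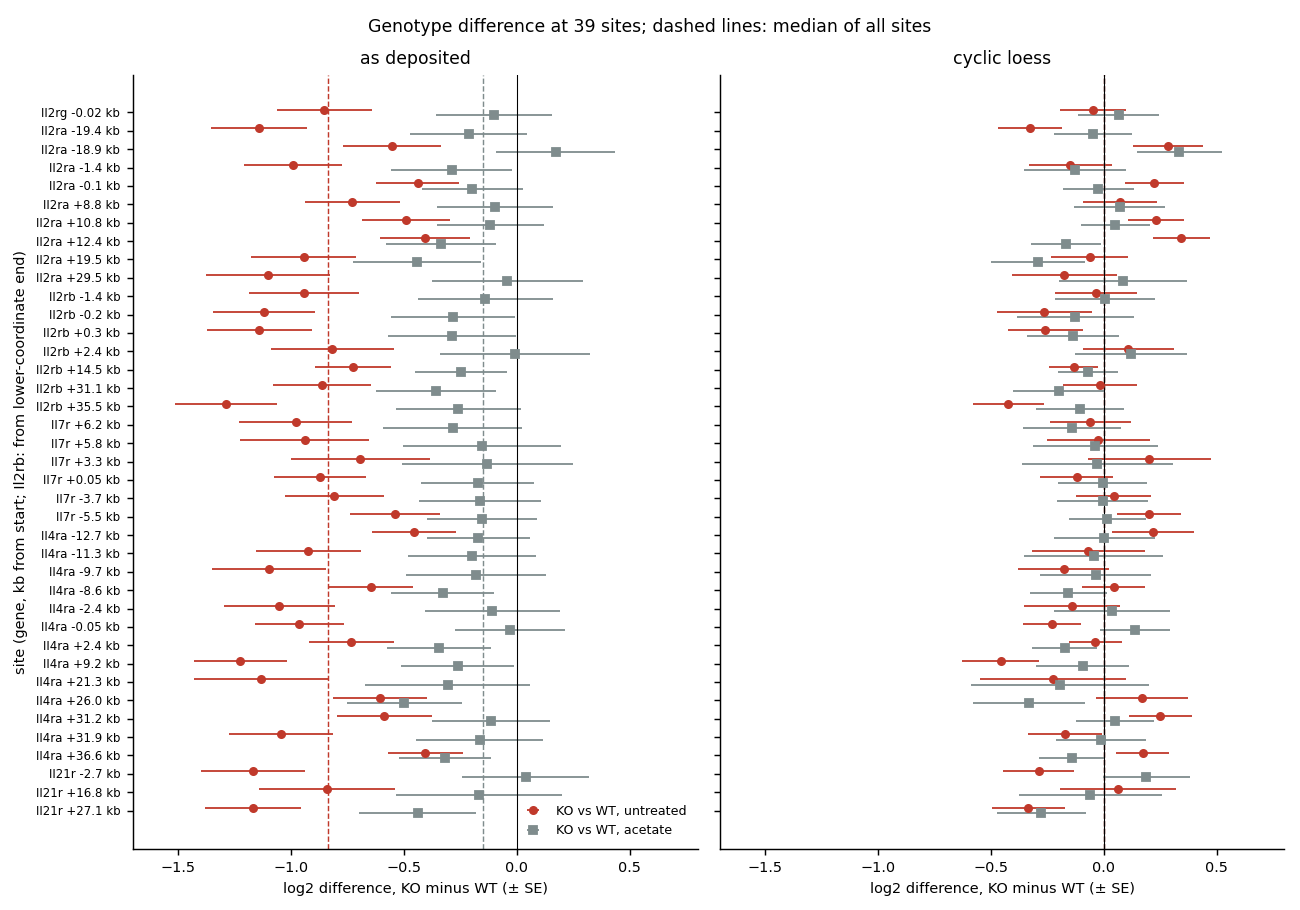
Log2 difference, KO minus WT, with its SE at each of the 39 sites, untreated (red circles) and with acetate (grey squares), as deposited and after cyclic loess, with dashed lines at the median of all sites. As deposited the untreated differences run from -1.29 to -0.41 around the median of the table, and after loess they lie around 0.

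The third comparison is acetate against untreated in KO, which coincides with the column prefix. On the deposited scale 18 of the 39 sites were higher with acetate (54.6% of all sites) and none lower, with a median log2 difference of 0.46 against 0.61 over all sites. They were 1 of 1 at Il2rg, 4 of 9 at Il2ra, 5 of 7 at Il2rb, 1 of 6 at Il7r, 6 of 13 at Il4ra and 1 of 3 at Il21r. Without KO acetate 1 the count was 6, and the share of all sites was not counted for that fit. With loess 3 sites were higher (11.5% of all sites) and 6 lower (16.7%). Over median-of-ratios, total signal and loess together, 3 sites were called higher and 4 lower under each of the 3. The share of all sites called under each of the 3 was not counted. These counts therefore do not show whether the members differed from the rest of the table.

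The 3 that rose on every scale were 1 site each of Il2ra, Il7r and Il4ra. At Il2ra -19.4 kb signal went from 135, 132 and 167 to 464 and 336, a log2 difference of 1.45 ± 0.24 as deposited (adjusted p = 1.07e-07) and 0.83 with loess (adjusted p = 8.98e-04). At Il7r +6.2 kb it went from 37.3, 41.1 and 52.0 to 120.2 and 107, which is 1.38 ± 0.28 (adjusted p = 1.87e-05) and 0.64 with loess (adjusted p = 0.0240). At Il4ra -2.4 kb (chr7:125549746-125549946) it went from 42.2, 49.5 and 44.9 to 139 and 136, which is 1.57 ± 0.27 (adjusted p = 6.43e-07) and 0.85 with loess (adjusted p = 0.0130). At each, both acetate libraries stood above every untreated KO library, and at Il4ra also above every untreated WT library.

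The 4 that were lower on each rescaled version, and close to 0 as deposited, were Il2ra +12.4 kb, Il7r -3.7 kb, Il4ra +36.6 kb and Il21r +27.1 kb. At Il7r -3.7 kb (chr15:9533449-9533649) signal was 145, 114 and 167 in untreated KO and 153 and 116 with acetate. The values overlapped as deposited (-0.07 ± 0.25), and the loess difference was -0.74 (adjusted p = 0.00662). Upstream of Il7r an enhancer is known that FOXO1 binds; whether it is this site was not tested. At Il21r +27.1 kb signal was 157, 191 and 181 untreated and 174 and 157 with acetate, and -0.73 with loess (adjusted p = 0.00584). Il4ra +36.6 kb had 902, 1231 and 1183 untreated and 1067 and 916 with acetate, and -0.46 with loess (adjusted p = 0.0144). Il2ra +12.4 kb had -0.63 with loess (adjusted p = 0.00303). Il2ra -1.4 kb and Il7r +3.3 kb were also called lower with loess, -0.70 and -0.98 (adjusted p = 0.0175 and 0.0237), but not with total signal.

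At the other sites the deposited differences ran from 0.09 to 0.98, below and above the median of the table (0.61). At Il2rg signal went from 205, 182 and 260.1 to 382 and 294, without overlap, 0.65 ± 0.23 (adjusted p = 0.0130), and 0.04 with loess. At Il2rb +35.5 kb it went from 80.6, 62.6 and 91.0 to 164 and 142, 0.97 ± 0.25 (adjusted p = 6.57e-04), and at Il21r -2.7 kb from 67.5, 71.0 and 73.3 to 155 and 124, 0.96 ± 0.26 (adjusted p = 9.12e-04). With loess these were 0.28 and 0.26, and neither was called.

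The fourth comparison is acetate against untreated in WT, where the whole table moved little (median -0.03). As deposited none of the 39 was higher (2.91% of all sites) and 2 were lower (3.02%). These were Il2ra -1.4 kb and Il21r +27.1 kb. At Il2ra -1.4 kb (chr2:11641338-11641538) signal was 398, 309 and 236 untreated and 169 and 199 with acetate, -0.74 ± 0.24 (adjusted p = 0.0459). At Il21r +27.1 kb it was 487, 401 and 318 untreated and 234 and 216 with acetate, -0.82 ± 0.24 (adjusted p = 0.0205), without overlap at either site. The fall at Il21r was called on all 4 scales, and that at Il2ra -1.4 kb on all but total signal (-0.70, adjusted p = 0.0598). As deposited, 0 of the 39 were called without WT acetate 1, WT acetate 2 or WT untreated 1, or with the WT libraries fitted alone. The share of all sites was not counted for these fits.

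With loess 2 sites rose (4.43% of all sites) and 3 fell (4.07%). The rises were Il7r +6.2 kb (0.72, adjusted p = 0.0342) and Il2ra -19.4 kb (0.55, adjusted p = 0.0393), which also rose in KO. At Il7r +6.2 kb WT signal was 107, 83.4 and 70.8 untreated and 157 and 122 with acetate, and at Il2ra -19.4 kb it was 367, 306 and 287 untreated and 502 and 419 with acetate. Neither site overlapped between the groups. The third fall was at Il7r -3.7 kb, with 288, 204 and 253 untreated and 132 and 169 with acetate (-0.69, adjusted p = 0.0300).

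WT is the genotype in which acetate can be compared within a prefix, since WT untreated 4 is ATAC2 like the acetate libraries. With that single untreated library, assumed to vary like the others, 3 sites were higher (5.63% of all sites) and none lower. They were Il7r +6.2 kb (0.96, adjusted p = 0.0333), Il4ra -2.4 kb (0.91, adjusted p = 0.0398) and Il4ra +26.0 kb (0.86, adjusted p = 0.0418). Il2ra -19.4 kb was 0.67 there (adjusted p = 0.143). The differences at Il2ra -1.4 kb and Il21r +27.1 kb were smaller within the prefix, -0.36 and -0.50 (adjusted p = 0.518 and 0.309). At Il7r -3.7 kb it was -0.75 within the prefix (adjusted p = 0.0909) and -0.71 over all WT libraries.

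**Figure D4:**
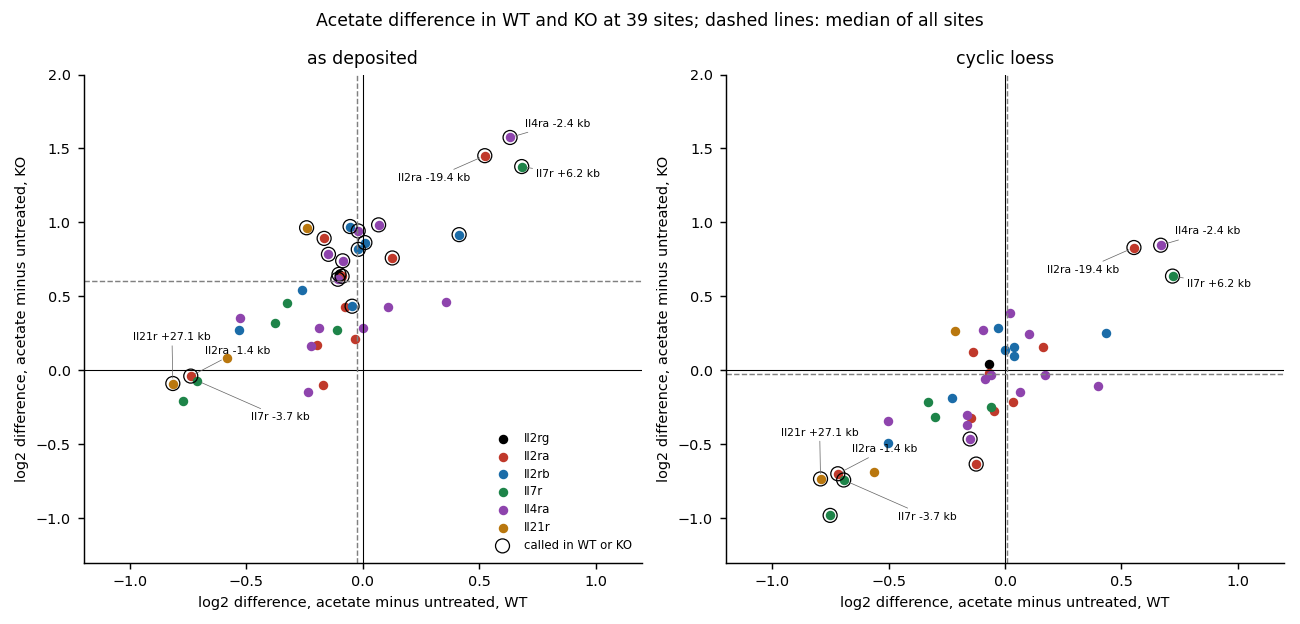
Log2 difference, acetate minus untreated, in WT (horizontal) and KO (vertical) at the 39 sites, as deposited and after cyclic loess, coloured by gene, with rings on sites called in either genotype on that scale and dashed lines at the medians of all sites. Il4ra -2.4 kb, Il2ra -19.4 kb and Il7r +6.2 kb lie at the upper right in both panels.

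The differences with acetate in KO and in WT share no library. Across the 39 sites they had a Pearson r of 0.776 as deposited and 0.844 with loess, against 0.484 and 0.479 across all sites. The sign was the same at 16 of 39 as deposited (50.9% of all sites) and at 30 of 39 with loess (74.6% of all sites). Sites share libraries within each difference, and in both genotypes the acetate libraries are ATAC2 while most or all untreated ones are ATAC1.

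A pair of measures within a library, added after the data were seen, do not depend on any factor: a site's percent of its gene's reads, and the ratio of reads at sites less than 1 kb apart. At Il2ra the -19.4 kb site held 9.81, 9.55 and 8.02% of the gene's reads in untreated WT and 6.58, 6.08 and 6.27% in untreated KO. After acetate it held 14.6 and 12.9% in WT and 13.8 and 12.9% in KO. The acetate libraries of both genotypes were above all untreated ones, and untreated KO was below untreated WT. At Il7r the +6.2 kb site held 5.79, 6.19 and 4.02% in untreated WT, 3.88, 4.78 and 4.64% in untreated KO, and 8.74 to 11.8% over the 4 acetate libraries. Here the untreated genotypes overlapped and all acetate libraries stood above them. At Il4ra the -2.4 kb site held 1.03 to 1.90% over the 6 untreated and 2.34 to 2.91% over the 4 acetate libraries, again without overlap. At Il21r the -2.7 kb site held 24.1 to 27.1% untreated, 31.4 and 35.6% in acetate-treated WT and 41.6 and 39.4% in acetate-treated KO, while the +27.1 kb site held a smaller share with acetate (46.6 to 55.7% against 59.0 to 66.7%). Il21r has 3 sites, so these shares move against each other by construction.

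The Il2ra -19.4 kb site has a neighbour at -18.9 kb (chr2:11623835-11624035), 565 bp away. The ratio of their reads was 0.867, 1.04 and 0.783 in untreated KO, 1.33, 1.65 and 1.10 in untreated WT, 2.26 and 1.86 in acetate-treated WT and 1.71 and 1.44 in acetate-treated KO. Untreated KO was below untreated WT without overlap (fold 0.664, exact permutation p = 0.1), and acetate was above untreated in KO (fold 1.76, p = 0.1) and WT (fold 1.53, p = 0.2). Of the sites of this pair the -19.4 kb one changed more, since the -18.9 kb site had 276, 186 and 262 in untreated WT and 222 and 225 in WT with acetate. At Il7r the ratio of +6.2 kb to +5.8 kb, 358 bp apart, was 1.21 ± 0.238 in untreated KO and 1.23 ± 0.145 in untreated WT (SD, n = 3). It was 2.29 ± 0.452 in KO with acetate and 2.56 ± 0.887 in WT with acetate (n = 2), folds of 1.90 and 2.03 (exact permutation p = 0.1 in each). WT untreated 4, the untreated library of the acetate libraries' prefix, had 1.10 at Il2ra and 1.07 at Il7r, below every acetate library. At the Il2rb pair the ratio was between 1.35 and 1.41 on average in every group and all groups overlapped. At Il4ra the ratio of +31.2 to +31.9 kb was 2.01 ± 0.360 in untreated KO and 1.45 ± 0.182 in untreated WT, without overlap (fold 1.38, exact permutation p = 0.1). Over the 16 comparisons of ratios the lowest adjusted p was 0.32. The smallest p possible was 0.1, or 0.333 between acetate groups, so none could pass.

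**Figure D5:**
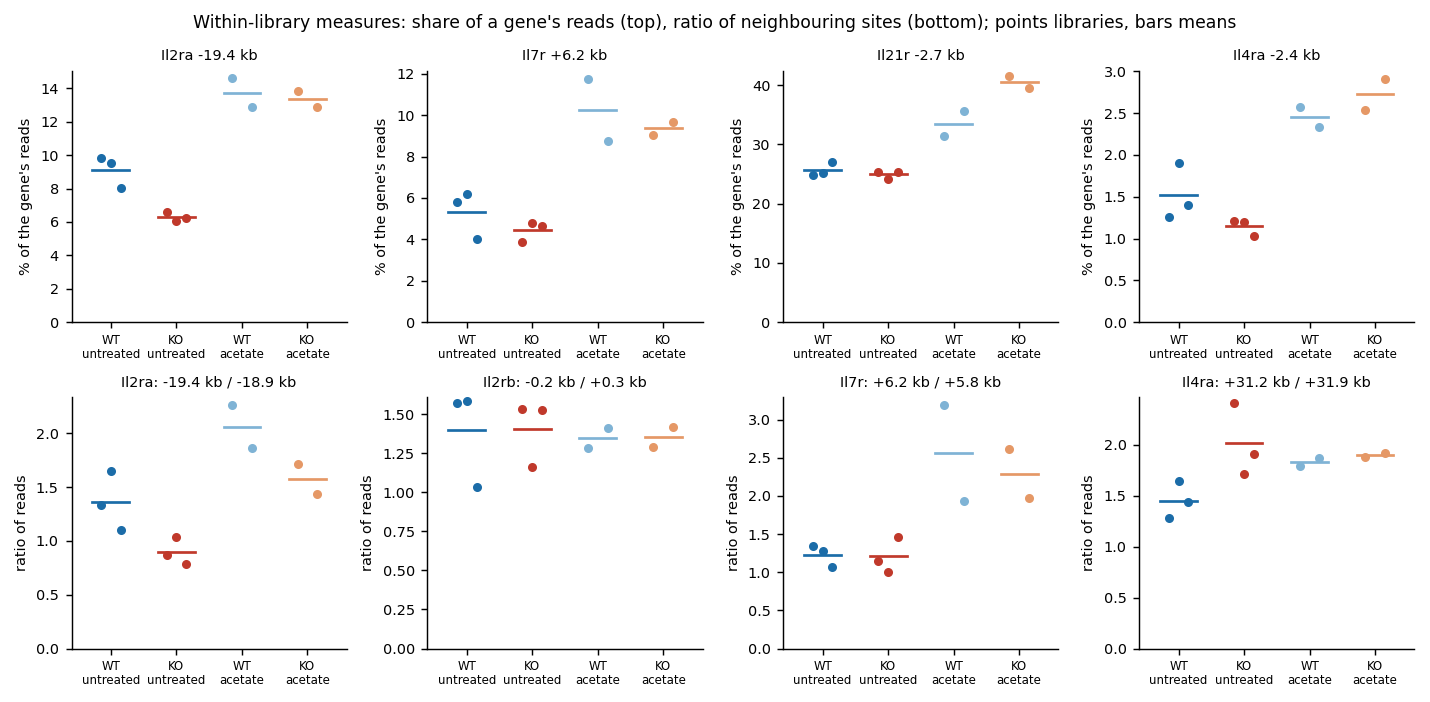
Top, percent of the gene's reads at 1 site of Il2ra, Il7r, Il21r and Il4ra; bottom, ratio of reads at neighbouring sites of Il2ra, Il2rb, Il7r and Il4ra; points are libraries and bars group means. At Il2ra -19.4 kb and Il7r +6.2 kb all 4 acetate libraries stand above all 6 untreated ones in the share, and at Il7r also in the ratio, while the Il2rb ratio is alike in all groups.

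The genotype by acetate interaction asks whether the difference with acetate was larger in KO than in WT. On the deposited scale 5 of the 39 were called, all positive, where 19.5% of all sites were called positive. They were Il2ra -19.4 kb (0.93 ± 0.33, adjusted p = 0.0381), Il2rb +35.5 kb (1.03 ± 0.36, adjusted p = 0.0343), Il4ra -0.05 kb (0.93 ± 0.31, adjusted p = 0.0309), Il4ra +9.2 kb (0.96 ± 0.32, adjusted p = 0.0309) and Il21r -2.7 kb (1.21 ± 0.36, adjusted p = 0.0205). No site of Il2rg or Il7r was called. All 39 were above 0, with a median of 0.70 against 0.67 over all sites. With loess, where 7.5% of all sites were called, none of the 39 was, and none with median-of-ratios or total signal. Leaving out a library moved the count between 0 (without KO acetate 1, KO untreated 1, WT acetate 2 or WT untreated 1) and 13 (without WT untreated 4). It was 12 without WT untreated 2, 8 without KO untreated 3, 3 without KO acetate 3, and 1 without KO untreated 2 or WT acetate 1. With a library left out the share of all sites was not counted, so these counts are no result about the members.

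Untreated WT holds both prefixes, so the prefix could also be fitted as a term beside the 4 group means, with 5 residual degrees of freedom. This fit was added after the data were seen. The term rests on WT untreated 4 against WT untreated 1 and 2 and is assumed to be the same in KO, where no group holds both prefixes. In the interaction 13 of the 39 sites were then called, all positive, where 28.8% of all sites were, and the 5 named above were among them. With acetate in KO 14 sites were higher (27.3% of all sites) and none lower, among them Il2ra -19.4 kb (1.67, adjusted p = 1.12e-04), Il7r +6.2 kb (1.79, adjusted p = 5.04e-04) and Il4ra -2.4 kb (1.99, adjusted p = 6.70e-05). With acetate in WT none was called (10 at an unadjusted p under 0.05), where 4.96% of all sites were.

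With the prefix term and loess together, 5 sites were lower in untreated KO (5.74% of all sites), where loess alone gave none. They were Il2ra -19.4 kb (-0.43), Il4ra +9.2 kb (-0.61), Il21r +27.1 kb (-0.51), Il4ra -11.3 kb (-0.47) and a site at the lower-coordinate end of Il2rb (-0.56). With acetate 10 were higher and 3 lower in KO (9.2% and 11.2% of all sites), and 7 higher and 2 lower in WT (8.28% and 4.64%). Il2ra -19.4 kb, Il7r +6.2 kb and Il4ra -2.4 kb were higher in both genotypes, with 1.14, 0.90 and 1.13 in KO and 0.76, 0.90 and 0.86 in WT. None of the 39 was called in the interaction, where 9.38% of all sites were.

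The genes whose pattern over the 10 libraries was most like each member were taken by Pearson r of mean log2 signal less each library's median, among 4487 genes with at least 3 sites (4488 for Il2rg). For Il2rg these were Coq7 (0.894), Zfp831 (0.878) and Tex14 (0.869), and for Il2ra Bptf (0.883), Il6st (0.874) and Ubtd1 (0.873). For Il2rb they were Mrpl46 (0.970), Osgin1 (0.965) and Ss18 (0.947), and for Il7r Nnmt (0.975), Trp53inp1 (0.937) and Fam240a (0.934). For Il4ra they were Stau1 (0.895), Rhoq (0.890) and Ccdc88c (0.856), and for Il21r Rab37 (0.969), Paxx (0.965) and Ccm2 (0.962). The best of 4487 genes over 10 libraries is high by selection, and the median r over all candidates was 0.02 to 0.16. No member was among the genes nearest to another, but Il2rg, with 1 site, was not a candidate. The members' own patterns differed: Il4ra had r of 0.605 with Il2rb and -0.367 with Il2rg, and Il7r 0.639 with Il21r and 0.628 with Il2ra.

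The rest of the pathway, from ligands to targets and regulators of the receptor genes, had 277 sites at 34 genes of 6 lists. In untreated KO 8 were higher and 268 lower as deposited, where 9.07% and 89.6% of all sites were. With loess 8 were higher and 9 lower, which is 2.89% and 3.25% beside 9.35% and 2.41% of all sites. With acetate in KO 149 were higher and 6 lower as deposited (54.6% and 5.94% of all sites), and 31 and 40 with loess (11.5% and 16.7%). With acetate in WT 7 were higher and 13 lower (2.91% and 3.02% of all sites), and 14 and 23 with loess (4.43% and 4.07%). In the interaction 59 were positive and 2 negative (19.5% and 3.61% of all sites), and with loess none and 5, where 7.36% of all sites were negative. Between genotypes with acetate none of the 277 was called on either scale, where 0.0227% of all sites were. With 2 libraries a group this does not show that the genotypes were alike. The counts for single lists below stand beside these same shares of all sites, and none was tested against them.

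Of the ligand genes Il2, Il4 and Il21 had 16 sites, and Il7, Il9 and Il15 had none. A site at Il2 (chr3:37157120-37157320) fell in untreated KO by 1.54 ± 0.22 on the log2 scale (adjusted p = 3.71e-09) and by 0.69 with loess (adjusted p = 0.00904). With acetate this site rose in KO by 2.37 ± 0.24 (adjusted p = 2.73e-15, 1.71 with loess) and in WT by 1.09 ± 0.24 (adjusted p = 0.00140, 1.11 with loess). Another Il2 site (chr3:37121125-37121325) went the other way in untreated KO, with 0.99 ± 0.36 (adjusted p = 0.00689) and 1.84 with loess (adjusted p = 0.00283). IL-2 is the ligand of the receptor that Il2ra completes. At Il21 (chr3:37180132-37180332) the differences were -1.52 in untreated KO and 1.97 with acetate in KO. Of the 16 sites 14 were lower and 1 higher in untreated KO, and 1 and 1 with loess. With acetate 10 were higher in KO and 2 in WT as deposited, and none lower. With loess 2 were higher and 3 lower in KO, among the lower a site at Il21 (chr3:37209643-37209843, -0.80, adjusted p = 0.0040), and 3 were higher and 1 lower in WT.

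Of the other chains that pair with the gamma chain or a member, Crlf2, which pairs with Il7r to bind TSLP, had a site (chr5:109553573-109553773) with -1.79 ± 0.25 in untreated KO (adjusted p = 1.67e-09) and 2.09 ± 0.28 with acetate in KO (adjusted p = 1.92e-10). With loess these were -0.88 and 1.36, both called. Il13ra1, which pairs with Il4ra to bind IL-13, went the other way: 1.59 ± 0.33 in untreated KO (adjusted p = 1.92e-05) and -1.66 ± 0.37 with acetate in KO at chrX:36107554-36107754, 2.46 and -2.43 with loess. Of the 9 partner chain sites 8 were lower and 1 higher in untreated KO, and 7 higher and 1 lower with acetate in KO, as deposited. With loess 1 was higher and 1 lower in each of these comparisons. Il15ra had no site.

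Among the kinases and STAT factors all 38 sites were lower in untreated KO as deposited and 2 with loess. With acetate 25 were higher in KO and 1 in WT, and with loess 2 were higher and 3 lower in KO and 1 and 2 in WT. Jak1, the kinase on most of the specific chains, had a site (chr4:101239342-101239542) at -1.78 in untreated KO, 2.26 with acetate in KO and 0.93 with acetate in WT (adjusted p = 8.60e-09, 4.87e-11 and 0.0327). The acetate differences held with loess (1.52 and 0.96, adjusted p = 8.80e-04 and 0.0487). Another Jak1 site (chr4:101260879-101261079) was lower with acetate on that scale, -0.76 in KO and -0.63 in WT (adjusted p = 0.00250 and 0.0263). A Stat5b site (chr11:100818465-100818665) was lower with acetate in KO with loess, -0.60 (adjusted p = 0.0232). Among feedback inhibitors Socs2, a STAT5 target that dampens cytokine signals, had sites in both directions. In untreated KO it was 1.09 ± 0.27 at chr10:95438655-95438855 and -1.74 ± 0.23 at chr10:95442432-95442632, and in WT with acetate another site was -2.19 ± 0.37. All 3 were called with loess too (2.02, -0.87 and -2.18). A Socs3 site was -0.73 with acetate in WT (adjusted p = 0.0428, -0.70 with loess).

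Among genes known as targets of these receptors 71 of 74 sites were lower and 3 higher in untreated KO as deposited, and 1 lower and 3 higher with loess. The site lower with loess was at Pim1 (-0.64, adjusted p = 0.00991), a STAT5-induced kinase. A site at Bcl2 (chr1:106650765-106650965), whose product protects from cell death, was higher in untreated KO by 0.85 ± 0.22 (adjusted p = 2.99e-04) and by 1.67 with loess (adjusted p = 1.44e-05). Gata3, the Th2 factor below Il4ra and STAT6, had a site (chr2:9881852-9882052) that rose with acetate in KO (1.53, adjusted p = 9.99e-08, and 0.85 with loess) and in WT (0.80, adjusted p = 0.0299, and 0.83 with loess). A Prdm1 site was higher in untreated KO (1.26, adjusted p = 4.64e-05) and lower with acetate in KO (-1.51, adjusted p = 2.24e-05). Among factors known to act on Il7r or Il2ra, Gfi1, which represses Il7r, had a site (chr5:107728832-107729032) that rose with acetate by 2.95 ± 0.35 in KO (adjusted p = 1.30e-12) and 1.74 ± 0.35 in WT (adjusted p = 2.62e-04). With loess these were 2.18 and 1.76, both called. A Foxo1 site (chr3:52274573-52274773) fell with acetate in WT, -1.09 as deposited (adjusted p = 0.00564) and -1.05 with loess. Of the 107 sites of this list 51 were higher and 1 lower with acetate in KO, and 16 and 17 with loess.

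Receptor chains of other cytokine families were set beside the members, with 114 sites at 16 genes. In untreated KO 110 were lower and 2 higher as deposited, and with loess 5 and 2. With acetate 72 were higher and 1 lower in KO and 3 were lower in WT, and with loess 16 higher and 15 lower in KO and 3 and 3 in WT. As shares with loess in KO this is 14.0% higher and 13.2% lower, beside 7.69% and 15.4% of the 39 member sites. A site at Il23r, a receptor chain that Th17 cells need, had -1.49 in untreated KO (adjusted p = 1.39e-08, -0.63 with loess). Over its 7 sites Il23r held 144 to 161 RPM in untreated KO and 142 to 189 in untreated WT, which overlap. In the same comparison a site at Il10rb had -1.71 (adjusted p = 8.67e-09, -0.79 with loess). The 2 higher sites, at Tgfbr2 and Il12rb2, had 1.53 and 0.78 (adjusted p = 0.00101 and 0.00175, 2.41 and 1.67 with loess). A site at Il1r1 rose with acetate in KO by 1.76 (adjusted p = 4.76e-09, 1.06 with loess). A site at Il18r1 fell with acetate in WT, -0.86 (adjusted p = 0.0231, -0.83 with loess).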

How the data were processed

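The deposited table gives 1 signal value per site and library for 39657 sites on GRCm38. The submitters' processing notes name BWA 0.7.16a, Genrich, DiffBind 3.6.1, DESeq, DESeq2, Picard 2.10.9, deepTools 3.5.1 and FastQC 0.11.5, and give no roles. From the values, 100% in each library are whole reads over 1 factor (tolerance 0.001), and the sources used here do not say how the authors made that factor. No sample title lists the numbers of the columns WT 4 and KO acetate 3, which were placed in their group only.

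Each site was given the nearest protein-coding gene body of a RefSeq gene table, which holds no exons. The deposited signal was fitted in R 4.3.3 by limma 3.58.1 with trend and robust options, on log2 of the value plus 1, as 4 group means over all 10 libraries and Benjamini-Hochberg adjustment over all 39657 sites. A site is called below an adjusted p of 0.05. This replaced the planned count test because the values are normalized. Errors are SD for levels and SE for log2 differences. The fit was tested on simulated data. Python 3.11.15 with scipy 1.17.1, pandas 2.3.3, numpy 2.4.6 and matplotlib 3.10.9 made the other tables and the figures.

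Named sites are each gene's strongest site, sites within 1 kb of a gene end, the most changed site per contrast and sites called against most of the table, plus 2 genes per list, contrast and direction. Other sites, among them Il7r -3.7 kb, Il4ra -2.4 kb in WT, Il4ra +31.2 kb and sites called on another scale, were chosen after their values were seen. Members, lists and tests were chosen with earlier results of these data known. Alternatives covered scaling, pseudocounts (0.5 and 8), a low-signal filter at the 25th percentile, a 10 kb distance, single prefixes, a prefix term, left-out libraries and a replicate block. One marker result is not reported here.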

Additional observations from a re-analysis of the deposited data

Results flagged for a closer look

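At 5 of the 39 sites the log2 difference with acetate differed between KO and WT by the test of that difference itself (limma interaction, as deposited). All 5 were positive, where 19.5% of all sites were called positive. The interaction was 0.93 at Il2ra -19.4 kb, 1.03 at Il2rb +35.5 kb, 0.93 at Il4ra -0.05 kb, 0.96 at Il4ra +9.2 kb and 1.21 at Il21r -2.7 kb. None of the 5 was called with median-of-ratios factors, total signal or cyclic loess. All 5 were called with the column prefix as a term on the deposited scale, where 28.8% of all sites were called positive.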

How the results depend on the processing

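The calls rest on the factor per library. In untreated KO against WT 39 called sites became 0 with cyclic loess, 2 with total signal and 2 with median-of-ratios factors, and were 31 to 39 with a library left out. For acetate in KO 18 became 9, 7 and 10 on these scales, and 6 (without KO acetate 1) to 20 with a library left out. For acetate in WT 2 became 5 with loess or median-of-ratios factors, 3 within ATAC2, 1 with the low-signal filter, 0 with the WT libraries alone, and 0 to 2 with a library left out. For the interaction 5 became 0 with each rescaling and 0 to 13 with a library left out. In the 391 listed sites, other receptor chains included, 388, 228, 23 and 87 calls became 24, 102, 43 and 8 with loess. With the column prefix as a term, added after the data were seen, acetate in WT gave 0 and the interaction 13, and together with loess untreated KO against WT gave 5, acetate in WT 9 and the interaction 0. KO against WT with acetate gave 0 calls throughout. Shares of all sites were not counted with a library left out, with the low-signal filter or with the WT libraries alone. The cause of these changes was not tested.

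With the replicate block, over the 8 libraries whose number is in a title, 38, 0, 18 and 3 sites were called and 19 for the interaction. The interaction had 12 in the same 8 libraries without the block. Shares of all sites were not counted for these fits, so the counts are no result about the members. The deviations of same-numbered libraries from their group means had r from -0.122 to 0.331, and those of differently numbered ones -0.331 to 0.219. In groups of 2 the deviations mirror each other, so these values cannot show whether libraries were paired. The numbers were not taken as pairs because the labels do not say that they are.

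With a library left out, the difference in RPM changed sign at these genes. For KO against WT untreated it ran from -10.1 to 4.68 at Il7r and from -36.5 to 55.8 at Il4ra. For KO against WT with acetate it ran from -1.26 to 4.72 at Il2rg, -25.9 to 23.4 at Il2ra and -13.3 to 11.7 at Il7r. For acetate in WT it ran from -4.62 to 0.57 at Il2rg, -22.4 to 6.89 at Il2ra, -13.5 to 11.9 at Il2rb and -69.3 to 23.0 at Il4ra. The Il2rg difference between genotypes with acetate turned to 0.0557, 0.0652 and 0.0660 with median-of-ratios, total signal and loess, and the Il7r +5.8 kb interaction to -0.0120 with loess. The planned count tests on recovered reads were not run.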
